A study of Mus musculus with 24 samples.

Results

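The 10 genes described here make up the core of MHC class I antigen presentation in the mouse: the heavy chains H2-K1 and H2-D1, their shared light chain B2m, the peptide transporter subunits Tap1 and Tap2, the loading factor Tapbp, the immunoproteasome subunits Psmb8, Psmb9 and Psmb10, and the transactivator Nlrc5. They were listed by name, with earlier results of these data known, and all 10 were found among the 54446 gene identifiers counted in every library. All 10 also passed the filter on low counts, so none is missing from the tests.

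CD11b+ myeloid cells were sorted from MC38 tumours, a transplanted mouse colon carcinoma, and RNA was sequenced before (Input) and after pull-down with an antibody against N6-methyladenosine (IP), an assay called MeRIP-seq. Hosts were young adult mice of either sex, either Ythdf2 fl/fl (WT) or Lyz-Cre Ythdf2 fl/fl (cKO), so that both genotypes carried the floxed allele and only the cKO carried Cre, which is driven by the Lyz2 promoter in myeloid cells and leaves Ythdf2 untouched elsewhere in the host. Tumours were either unirradiated (Ctrl, sham treatment per the methods) or received a single dose of 20 Gy (IR) with collection 3 days later. Both genotypes with and without IR, each as Input and as IP, gave 8 groups of 3 libraries, 24 in all. Each library came from several pooled mice, and the methods name replicates technical for the cells but biological for the peaks, so SDs and p-values measure the spread between libraries, which may be technical. Inputs held 65180075 to 83661576 reads counted in genes and IP libraries 68846321 to 86421888.

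Class I molecules carry peptides from inside the cell to its surface, where CD8+ T cells read them. Proteins are cut by the proteasome, whose catalytic subunits Psmb5, Psmb6 and Psmb7 are replaced by Psmb8, Psmb9 and Psmb10 when interferon acts on a cell. The TAP1-TAP2 transporter moves the peptides into the endoplasmic reticulum, tapasin (Tapbp) holds the empty heavy chain with B2m beside the transporter, and NLRC5 switches on many of these genes at once. YTHDF2 recognises m6A on a transcript and recruits enzymes that degrade it, so the m6A sites on these transcripts and their Input level with and without myeloid Ythdf2 are the questions addressed.

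Checks of the labels came first. Ythdf2 was higher, not lower, in the cKO Inputs (174 to 231 CPM, read counts scaled to the library total) than in the WT Inputs (95.6 to 107 CPM). A count over the whole gene does not show the loss of a floxed exon, so this level checks nothing about the deletion. Lyz2, the locus that carries Cre, was at 20056 to 21462 CPM in the WT Inputs and at 296 to 414 CPM in the cKO Inputs. In the IP libraries Lyz2 was at 15641 to 16500.5 CPM in WT Ctrl and 86.7 to 91.8 CPM in cKO Ctrl, but at 88.5 to 91.1 CPM in the 3 IR libraries labelled WT and at 19517 to 19808 CPM in the 3 labelled cKO. The Lyz2 level thus went against the genotype label in all 6 IR IP libraries and in none of the other 18, and every value from IR IP libraries is given by label only. Myeloid markers were abundant in all 12 Inputs, whereas summed markers of T and NK cells, B cells, tumour epithelium, and fibroblasts with endothelium stayed between 0.373 and 1.97 CPM, with 2 or 3 of the 6 T and NK cell markers at 0 in each Input group. Marker sums are CPM of the unscaled library total, unlike the other CPM given here. The sum of 6 neutrophil markers differed between the Input groups, with 1782 to 1872 CPM in WT Ctrl, 439.9 to 476 in WT IR, 881 to 888 in cKO Ctrl and 469 to 494 in cKO IR. That of 4 monocyte markers was 745 to 800.3, 234 to 293, 624 to 661 and 375 to 383 CPM in the same order. The 6 macrophage markers, of which Apoe is the largest part, summed to 3850 to 3968, 3550.1 to 3964, 4057 to 4175 and 4064 to 4190.1 CPM. Within the sums the markers moved apart. With irradiation, 4 of the 6 macrophage markers were called lower and 2 were not called in WT. In cKO 5 were called lower and 1 higher. In cKO Ctrl vs WT Ctrl the macrophage markers C1qa, C1qb, C1qc, Adgre1 and Mrc1 were called higher and Apoe lower, the monocyte markers Ccr2 and Ly6c2 higher and Chil3 and Plac8 lower, and 5 of the 6 neutrophil markers lower and Csf3r higher. Mitochondrial reads made up 6.13% to 7.25% of the counts in the WT IR Inputs, 4.61% to 4.84% in WT Ctrl, 5.34% to 5.51% in cKO Ctrl and 3.39% to 3.75% in cKO IR. Red cell markers were found in the WT IR Inputs (21.6 to 23.6 CPM), against at most 0.0598 CPM in the other Inputs. The sum of 5 dendritic cell markers was 44.6 to 46.6 CPM in the WT Ctrl Inputs and 68.3 to 71.0 in WT IR. It was 42.0 to 42.8 CPM in cKO Ctrl and 58.0 to 59.9 in cKO IR. In sorted but mixed cells fewer cells of a type and less RNA per cell cannot be told apart, and the part of these shifts in the results below was not tested.

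In GRCm38, 7 of the genes lie in the MHC region of chromosome 17 and its extension, and neighbours that overlap matter for reading the peaks. H2-K1 (ENSMUSG00000061232.15, chr17:33996017-34000347, minus strand, GRCm38) and H2-D1 (ENSMUSG00000073411.11, chr17:35262730-35267499, plus strand) are close paralogs, so reads from shared stretches are uncertain. Psmb9 (ENSMUSG00000096727.2, chr17:34181987-34187764, minus) and Tap1 (ENSMUSG00000037321.17, chr17:34187553-34197225, plus) start head to head and overlap on opposite strands, followed by Psmb8 (ENSMUSG00000024338.14, chr17:34197721-34201454, plus) and Tap2 (ENSMUSG00000024339.12, chr17:34203527-34216321, plus). Tapbp (ENSMUSG00000024308.14, chr17:33915899-33929292, plus) shares its strand with the overlapping gene Zbtb22. B2m (ENSMUSG00000060802.8) lies at chr2:122147686-122153083 (plus), Psmb10 (ENSMUSG00000031897.9) at chr8:105935735-105938444 (minus) and Nlrc5 (ENSMUSG00000074151.13) at chr8:94434356-94527272 (plus).

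Sequences under called peaks are shown first, for loci that hold a form of the m6A motif and for 1 that does not. Peaks are those the authors called in each IP library and on each strand, and a peak was counted for a gene when it lay over it on its own strand. The m6A motif was searched in the form GGACT, in the form GGACA, in the form GGACC and in the form AGACT. The search covered the transcribed strand within 50 bases of the summit from the library with the highest fold at each locus. Among all 2384 windows of this length around consensus peaks of WT Ctrl on the same 3 chromosomes, 12.04% held GGACT, 13.4% GGACA, 11.3% GGACC and 11.7% AGACT. Of the 17 peak loci over the members, single-library ones included, 5 held GGACT, 4 GGACA, 3 GGACC and 2 AGACT. At least 1 form was found at 12 loci and none at 5, which were an H2-K1 locus called in 5 libraries, both Tapbp loci and 2 Tap2 loci. The share of background windows with at least 1 of the 4 forms was not computed, so the 12 loci have no share beside them. Unlike the background, the 17 loci come from all groups. A match is a description of the letters and not a mapped site. The stretches, from 7 of these loci, are 25 bases each, 5′ to 3′ on the transcribed strand of GRCm38.p6, and capitals mark the motif. At the Psmb8 loci another form lies nearer the summit than the printed GGACT. In the coding locus GGACA is 10 bases from the summit and GGACT 24. In the 3′ UTR locus AGACT is 17 bases from the summit and GGACT 32. In cKO Ctrl replicate 2 the summit of this locus (34201178) lay more than 50 bases from both. At the Psmb10 locus the printed motif is 33 bases from the summit used, that of WT Ctrl replicate 1. In cKO Ctrl replicate 2 and all IR libraries with this peak, summits lay at 105938264 to 105938270, more than 50 bases from the motif. The Psmb10 match, and its place among the 5 loci with GGACT, thus depends on the summit chosen.
Psmb10, 5′ UTR, chr8:105938188-105938212, minus: aagttatctgGGACTagcagcaaag
Psmb8, coding, chr17:34200732-34200756, plus: gatgacaatgGGACTcggctctcgg
Psmb8, 3′ UTR, chr17:34201317-34201341, plus: cagagacctgGGACTacttcagtct
Psmb9, coding, chr17:34182261-34182285, minus: ctgctggtgtGGACCatcgagtcat
Tap1, 3′ UTR, chr17:34196775-34196799, plus: caaggcctctGGACTgcacactgcg
Tap2, coding, chr17:34205393-34205417, plus: ggggctgccaGGACTctggatagag
H2-D1, coding, chr17:35263451-35263475, plus: tcggctatgtGGACAacaaggagtt

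The peak over the last coding part of Tap2, one of 3 loci called in all 12 libraries, held none of the 4 forms within 50 bases of its summit. The 61 bases around that summit are shown with the summit base in capitals, and they end before the stop codon.
Tap2, coding, chr17:34216013-34216073, plus: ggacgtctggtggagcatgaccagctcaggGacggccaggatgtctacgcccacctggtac

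That Tap2 peak (chr17:34215797-34216145) was called in 12 of 12 IP libraries, with its summit 50 bases before the stop codon. Its fold enrichment, the authors' ratio over a control library, was 2.57 to 3.65 in WT Ctrl, 2.48 to 3.03 in the libraries labelled WT IR, 2.12 to 3.21 in cKO Ctrl and 2.46 to 2.997 in those labelled cKO IR, so the groups overlapped. A second Tap2 peak lay further upstream in the coding sequence, at the GGACT shown above. It was called in 3 of 3 WT Ctrl libraries (fold 1.83 to 2.18) and 2 of 3 labelled WT IR (1.81 to 1.87). No cKO Ctrl library and no library labelled cKO IR had it. Another, at chr17:34211746-34211976, was called in 8 libraries of all 4 groups with a fold of 1.43 to 2.02. A further 3 Tap2 loci were each called in 1 library only (fold 3.11, 2.62 and 5.90).

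The immunoproteasome transcripts carried their peaks at different ends. On Psmb10 a peak in the 5′ UTR was called in 9 of 12 libraries, with a fold of 2.87 to 3.86. It was missing from 1 library each of WT Ctrl, cKO Ctrl and the group labelled cKO IR. On Psmb9 a peak 36 bases before the stop codon was called in 3 of 3 WT Ctrl libraries (fold 2.39 to 2.80) and in 1 cKO Ctrl library (2.23). On Psmb8 a coding peak was called in the 3 WT Ctrl libraries only, at a fold of 1.24 to 1.32, and a 3′ UTR peak in the 3 WT Ctrl (1.47 to 1.57) and the 3 cKO Ctrl libraries (1.25 to 1.502). Neither Psmb8 nor Psmb9 had a peak in any IR IP library.

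The heavy chains had weak peaks. H2-D1 and H2-K1 each had 1 coding peak in the 3 WT Ctrl libraries, at a fold of 1.59 to 1.69 and of 1.31 to 1.91, and in 1 library each labelled WT IR and cKO Ctrl. A further H2-K1 peak was called in a single library. Tap1 had a 3′ UTR peak in the 3 WT Ctrl libraries (fold 1.52 to 1.69) and in 2 labelled WT IR (1.39 to 1.52). It had none in cKO Ctrl or in the libraries labelled cKO IR. Nlrc5 had a peak in 1 library only (fold 3.10), and B2m had none in any of the 12 libraries although it was among the most abundant of the transcripts in IP (685 to 926 CPM).

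The peaks counted for Tapbp do not lie on its transcript as annotated. Both loci over the gene, called in 12 of 12 libraries with folds of up to 5.49, fall in an exon of Zbtb22, a zinc-finger gene on the same strand, and neither touches a Tapbp exon. On the opposite strand 8 further peaks over Tapbp were called in 7 libraries. With that gene included, 7 of the 10 members had a consensus peak (one found in all 3 replicates) in WT Ctrl, against 29.6% of all 16084 genes. The count was 3 in cKO Ctrl (background 27.7%), and by label 3 in WT IR (25.1%) and 2 in cKO IR (22.3%). When a peak had to touch an exon of the gene, a rule added after seeing the data, the counts were 6, 2, 2 and 1. The share of all genes was not computed under this rule, so these counts have none beside them. Tap2 was the 1 gene with a consensus peak in an exon in all 4 groups. No test compared peak numbers between groups, and the number of called peaks on a gene also moves with its depth.

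**Figure D1:**
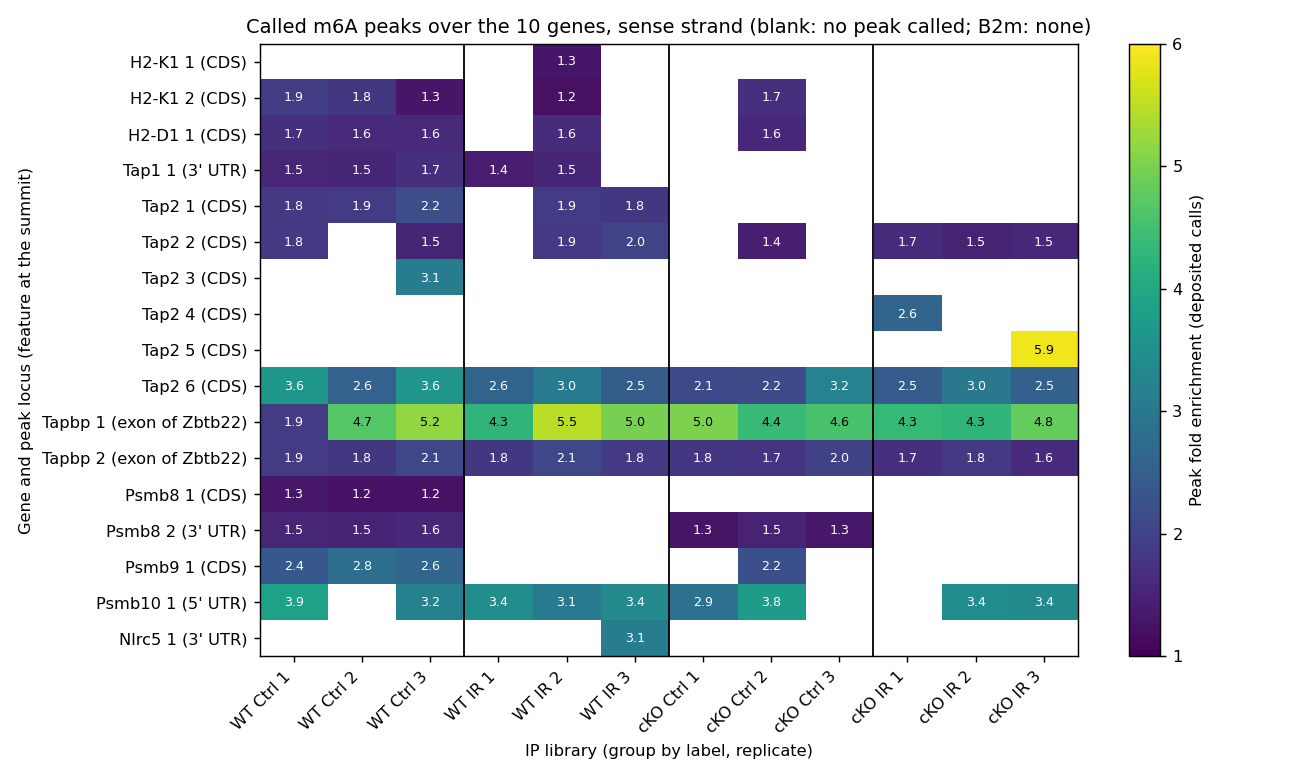
Fold enrichment (colour and printed value, as deposited) of each called sense-strand peak over the genes, with peak loci as rows and the 12 IP libraries, grouped by label, as columns. The last Tap2 locus is filled in 12 of 12 libraries, Psmb8 and Psmb9 are blank in all 6 IR libraries, and both Tapbp rows lie in an exon of Zbtb22.

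Levels in the Inputs spanned a wide range. Per length (RPKM, reads per kilobase of merged annotated exons, scaled as CPM), B2m was highest with 1365 to 1822 RPKM over the 12 Inputs, followed by H2-D1 with 721 to 909.8 and H2-K1 with 315 to 413. Tapbp had 82.6 to 97.2 RPKM and Psmb8 53.1 to 84.7, and these 2 ranges touched. Psmb10 followed with 23.3 to 37.2 RPKM, then Tap2 with 14.2 to 17.5 and Tap1 with 11.6 to 15.4, which overlapped, then Psmb9 with 6.82 to 11.9 and Nlrc5, the regulator, with 3.20 to 4.41. The ranges of Tap1 and Psmb9 also overlapped. Merged exons include those of minor transcripts, which lowers the RPKM of a gene with long ones. No group of Inputs lacked any of the 10 transcripts.

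**Figure D2:**
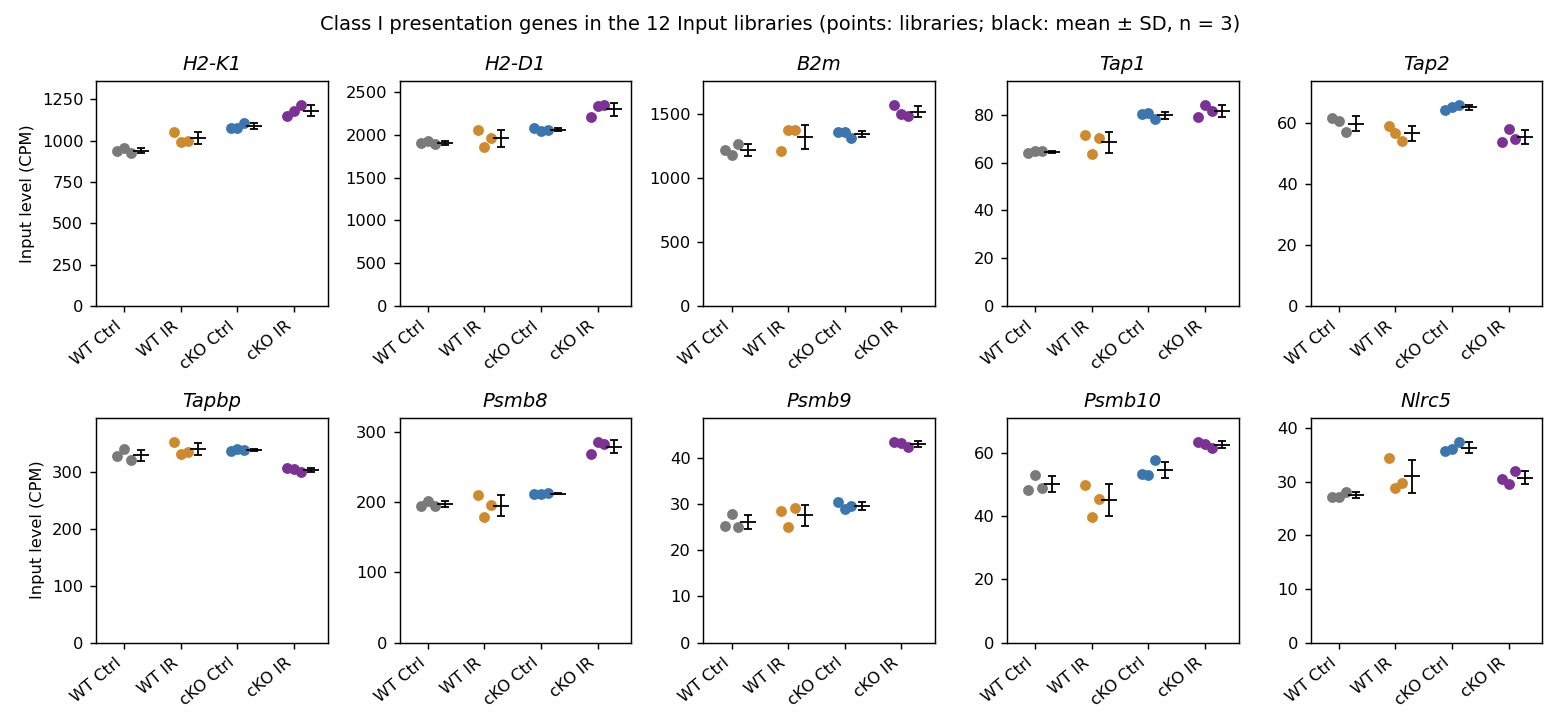
Input level in CPM (vertical axes from 0) of each gene in the 12 Input libraries by group, with points for libraries and black marks for the mean ± SD (n = 3). The cKO IR points stand above the other groups for the 3 immunoproteasome subunits and below them for Tapbp.

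In unirradiated tumours, class I transcripts were slightly higher in cKO than in WT myeloid cells. Of the 10 members, 6 rose and 0 fell (edgeR adjusted p under 0.05), against 15.7% of all 16090 genes tested called in either direction 8.05% called higher and 7.61% lower. The largest rise was that of the transactivator Nlrc5, followed by Tap1, and the others were smaller. The median log2 fold change was 0.13 over the members and -0.00 over all genes tested. In the same contrast 5 of the 6 macrophage markers were higher, C1qa by 0.73 ± 0.04 (edgeR adjusted p = 5.92e-11) and Adgre1 by 0.39 ± 0.04 (adjusted p = 1.58e-07), and their part in these rises was not tested.

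Nlrc5 was at 27.2, 27.2 and 28.1 CPM in the WT Ctrl Inputs and at 35.7, 36.1 and 37.5 in the cKO Ctrl Inputs. The groups did not overlap, and the log2 fold change was 0.40 ± 0.06 (SE; edgeR adjusted p = 5.65e-05). Tap1 was at 64.2, 64.9 and 64.8 CPM in WT Ctrl and at 80.6, 81.0 and 78.2 in cKO Ctrl, again without overlap. Its log2 fold change was 0.31 ± 0.04 (edgeR adjusted p = 3.65e-05), a 1.24-fold difference.

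H2-K1 was at 939, 953 and 924 CPM in WT Ctrl and at 1078, 1079 and 1106 in cKO Ctrl, a log2 fold change of 0.21 ± 0.03 (edgeR adjusted p = 3.31e-05). Every cKO Ctrl library of H2-K1 was above every WT Ctrl library. H2-D1 (0.11 ± 0.03, edgeR adjusted p = 0.0189), B2m (0.14 ± 0.04, adjusted p = 0.0230) and Psmb9 (0.19 ± 0.06, adjusted p = 0.0370) passed the threshold narrowly. The H2-D1 call was lost without Input replicate 1 or 3 of either group (edgeR adjusted p up to 0.0860), the B2m call without replicate 1 or 2 of either group (up to 0.124), and the Psmb9 call without WT Ctrl replicate 1 or 3, any cKO Ctrl replicate or cKO IR replicate 2 (up to 0.152). Tap2, Tapbp, Psmb8 and Psmb10 did not pass, with log2 values of 0.12, 0.04, 0.11 and 0.13. The count was 9 of 10 when only the 6 libraries of these 2 groups were fitted and 3 of 10 without WT Ctrl Input replicate 1 or cKO Ctrl Input replicate 1.

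In irradiated tumours most class I transcripts were higher in the cKO. In cKO IR vs WT IR, 7 members rose and 1 fell, against 47.7% of all genes called in either direction (23.9% higher and 23.8% lower). Among the members, Psmb8, Psmb9 and Psmb10 had the largest differences, followed by Tap1, the heavy chains and B2m, whereas Tapbp was lower and Tap2 and Nlrc5 were not called. The median was 0.23 over the members and -0.00 over all genes tested. Of the macrophage markers C1qa (0.83 ± 0.04, edgeR adjusted p = 2.14e-12), C1qb, C1qc and Adgre1 were also higher, Mrc1 was lower and Apoe was not called. All 4 monocyte markers were higher. Of the neutrophil markers 4 were lower, 1 was higher and 1 was not called. Of the dendritic cell markers 2 were lower, 1 was not called and 2 were not tested, and the 3 red cell markers were lower. Their part in these differences was not tested.

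Psmb8, which replaces Psmb5, was at 211, 179 and 196 CPM in WT IR and at 269, 286 and 283 in cKO IR, a log2 fold change of 0.52 ± 0.04 (edgeR adjusted p = 7.45e-09). Psmb9, which replaces Psmb6, was at 28.5, 25.0 and 29.2 CPM in WT IR and at 43.5, 43.2 and 42.3 in cKO IR (0.64 ± 0.06, edgeR adjusted p = 1.77e-08). Psmb10, which replaces Psmb7, was at 49.7, 39.7 and 45.5 CPM in WT IR and at 63.5, 63.0 and 61.5 in cKO IR (0.48 ± 0.06, edgeR adjusted p = 2.16e-06). For all 3 subunits each cKO IR library was above each WT IR library, and the WT IR libraries were more spread out, with replicate 2 the lowest. That library also had the highest share of mitochondrial reads (7.25%) and of reads outside genes (6.55%) of the 12 Inputs, and reads outside genes were 5.70% to 6.55% in WT IR against 3.95% to 4.14% in cKO IR. The part of this in the differences was not tested.

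H2-D1 was at 2058, 1861 and 1958 CPM in WT IR and at 2208, 2339 and 2346 in cKO IR, and its log2 fold change was 0.23 ± 0.03 (edgeR adjusted p = 5.71e-06). H2-K1 differed by 0.22 ± 0.03 (adjusted p = 4.03e-06), B2m by 0.20 ± 0.04 (adjusted p = 0.000385) and Tap1 by 0.25 ± 0.04 (adjusted p = 6.07e-05) in the same edgeR fit. Tapbp went the other way, with 353, 332 and 335 CPM in WT IR against 306, 306 and 299.5 in cKO IR (-0.16 ± 0.03, edgeR adjusted p = 0.000267). Nlrc5, which was higher in cKO without irradiation, was at 34.5, 28.8 and 29.8 CPM in WT IR and 30.5, 29.7 and 32.1 in cKO IR, and these overlapped (-0.01 ± 0.06, edgeR adjusted p = 0.887). The 8 calls of this contrast numbered 8 in every fit that left out 1 library.

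**Figure D3:**
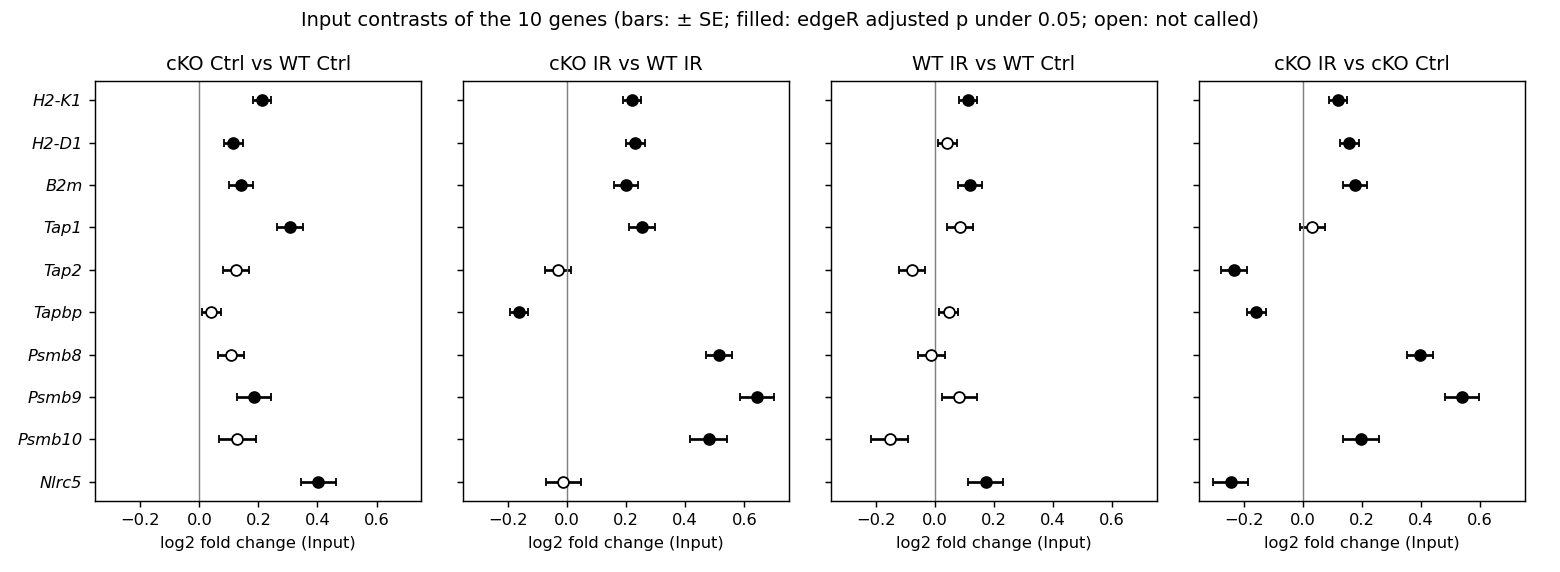
Log2 fold change (horizontal axes, ± SE) of each gene in 4 Input contrasts, with filled points for an edgeR adjusted p under 0.05 and open points for genes not called. The 3 immunoproteasome subunits lie farthest to the right in cKO IR vs WT IR, at 0.48 to 0.64, and Nlrc5 in cKO Ctrl vs WT Ctrl, at 0.40.

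Irradiation itself changed these transcripts little in WT cells. In WT IR vs WT Ctrl, 3 members rose and 0 fell, against 31.7% of all genes called (14.7% higher and 17% lower). They were H2-K1 (0.11 ± 0.03, edgeR adjusted p = 0.00643), B2m (0.12 ± 0.04, adjusted p = 0.0325) and Nlrc5 (0.17 ± 0.06, adjusted p = 0.0342). The H2-K1 libraries were at 939, 953 and 924 CPM in WT Ctrl and 1055, 989.7 and 1000.04 in WT IR. The B2m call was lost without WT Ctrl replicate 1 or 2 or WT IR replicate 2 or 3, and that of Nlrc5 without any of the 3 WT Ctrl libraries or WT IR replicate 1, where the Nlrc5 value went down to 0.09. The number of members called ranged from 1 to 5 when single libraries were left out, with 1 without WT Ctrl Input replicate 1 or 2 and 5 without WT IR Input replicate 2. The 3 immunoproteasome subunits gave -0.01, 0.08 and -0.15 and did not pass.

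In cKO cells irradiation moved 9 of the 10, with 6 higher and 3 lower (background 45.6% called, 21.8% higher and 23.8% lower). Psmb9 rose from 30.4, 28.9 and 29.5 CPM in cKO Ctrl to 43.5, 43.2 and 42.3 in cKO IR (0.54 ± 0.06, edgeR adjusted p = 1.83e-07), and Psmb8 from 212, 211 and 213 to 269, 286 and 283 CPM (0.40 ± 0.04, edgeR adjusted p = 2.69e-07). H2-K1, H2-D1, B2m and Psmb10 rose by 0.12 to 0.20, and the Psmb10 call was lost without cKO Ctrl Input replicate 1 or 2 (adjusted p up to 0.058). On the log2 scale Nlrc5 fell by 0.24 (SE 0.06, edgeR adjusted p = 0.00196), Tap2 by 0.23 (SE 0.05, adjusted p = 0.000251) and Tapbp by 0.16 (SE 0.03, adjusted p = 0.000388). Tap2 was at 64.3, 65.5 and 66.0 CPM in cKO Ctrl and at 53.8, 58.1 and 54.8 in cKO IR, without overlap. Tap1, its partner in the transporter, was not called (0.03 ± 0.04, edgeR adjusted p = 0.581).

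The irradiation effect itself differed between genotypes for 5 members. The interaction, which is the effect in cKO minus that in WT, was 0.41 ± 0.06 for Psmb8 (edgeR adjusted p = 4.28e-05), 0.46 ± 0.08 for Psmb9 (adjusted p = 0.000262) and 0.35 ± 0.09 for Psmb10 (adjusted p = 0.00426). It was -0.20 ± 0.05 for Tapbp (edgeR adjusted p = 0.00164) and -0.42 ± 0.08 for Nlrc5 (adjusted p = 0.000746). Across all genes 30.2% had a called interaction (15.0% higher and 15.2% lower). The heavy chains and B2m (0.01 to 0.12), Tap1 (-0.05) and Tap2 (-0.15) did not pass, so a genotype dependence of their irradiation effect was not shown. The 4 contrasts between pairs of groups share libraries and are not independent of one another.

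The constitutive proteasome gave a comparison within the same complex. Psmb5, Psmb6 and Psmb7, which the immunoproteasome subunits replace, rose in cKO IR vs WT IR by 0.56 ± 0.05, 0.64 ± 0.05 and 0.42 ± 0.05 (edgeR adjusted p = 7.1e-09, 1.3e-09 and 1.9e-06), next to 0.52, 0.64 and 0.48 for Psmb8, Psmb9 and Psmb10. The PA28 activator subunits Psme1 and Psme2, which open the proteasome core, rose by 0.47 and 0.59 in the same contrast. The ratio of each immunoproteasome subunit to its counterpart was therefore computed per library from RPKM, a measure chosen after these values were seen.

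The Psmb8 to Psmb5 ratio was 0.885, 0.906 and 0.929 in WT Ctrl, 1.03, 1.01 and 0.998 in WT IR, 0.975, 1.02 and 0.967 in cKO Ctrl, and 0.934, 0.996 and 1.02 in cKO IR. WT Ctrl lay below the other 3 groups, which overlapped. The Psmb9 to Psmb6 ratio was also lowest in WT Ctrl, with 0.0781 to 0.0847 in WT Ctrl, 0.0903 to 0.101 in WT IR, 0.0866 to 0.0941 in cKO Ctrl and 0.0915 to 0.0994 in cKO IR. Between cKO IR and WT IR the log2 ratio differed by -0.04 for Psmb8 over Psmb5, 0.00 for Psmb9 over Psmb6 and 0.06 for Psmb10 over Psmb7 (exact permutation p = 0.4, 1.0 and 0.7, two-sided, n = 3 each), and the groups overlapped in all 3. Between WT IR and WT Ctrl the first 2 ratios differed by 0.16 and 0.25 without overlap, and between cKO Ctrl and WT Ctrl by 0.12 and 0.15 (exact permutation p = 0.1 for each, the smallest that 3 against 3 allows). The Psmb10 to Psmb7 ratio was more spread, at 2.06 to 2.58 in WT Ctrl, 1.62 to 2.26 in WT IR, 2.18 to 2.51 in cKO Ctrl and 2.01 to 2.05 in cKO IR, and the last 2 groups did not overlap (log2 difference -0.19, exact permutation p = 0.1). In all, 12 such differences were computed and none could pass the 0.05 threshold at this size.

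**Figure D4:**
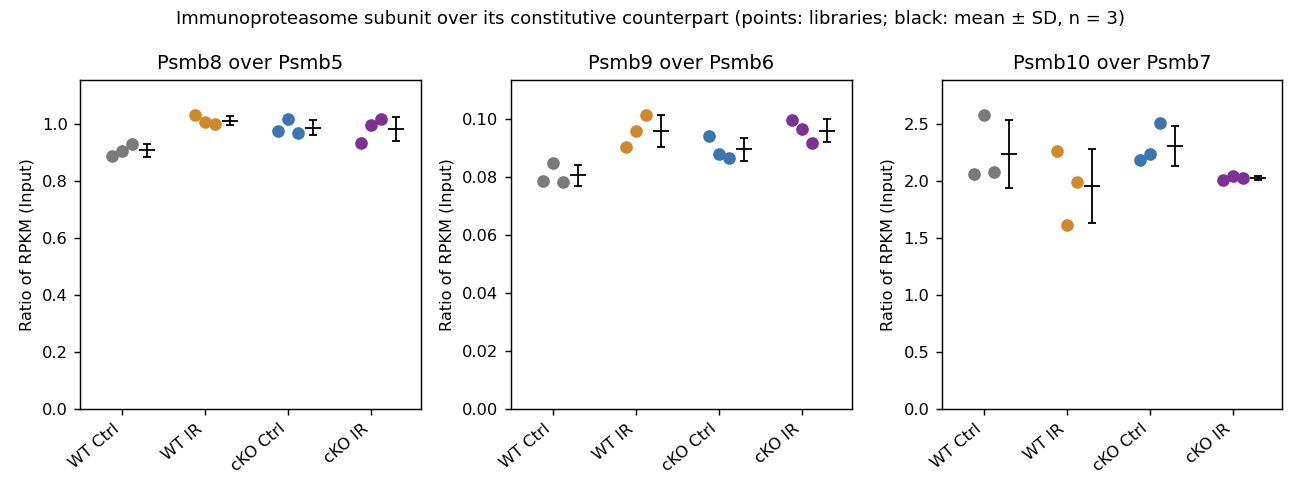
Ratio of RPKM (vertical axes from 0) of each immunoproteasome subunit to the constitutive subunit it replaces, per Input library, with black marks for the mean ± SD (n = 3). For the first 2 pairs WT Ctrl is lowest, and cKO IR overlaps WT IR for all 3 pairs.

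The rest of the pathway was followed in a list of 27 genes (proteasome, PA28, trimming, folding, non-classical heavy chains, the RFX complex and interferon signalling). In cKO Ctrl vs WT Ctrl, 7 of the 27 rose and 0 fell (background 8.05% higher and 7.61% lower). Among the 7 were H2-T24 (0.72 ± 0.09, edgeR adjusted p = 1.4e-05) and H2-M3 (0.35 ± 0.06, adjusted p = 3.6e-04). In cKO IR vs WT IR 14 rose and 6 fell (background 23.9% higher and 23.8% lower). The largest values were those of H2-T24 (1.35 ± 0.10, edgeR adjusted p = 7.6e-10), H2-M3 (0.72 ± 0.06, adjusted p = 1.0e-08) and Psmb6. H2-T24, a class I-like gene of low level, was at 4.75, 5.17 and 3.997 CPM in WT IR and at 12.7, 11.3 and 11.4 in cKO IR. The non-classical heavy chains share sequence with one another and with H2-K1 and H2-D1, so their counts are uncertain.

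Irradiation raised 9 and lowered 7 of the 27 in WT, with the largest values for H2-Q6 (0.71 ± 0.04, edgeR adjusted p = 3.0e-11), H2-Q7 (0.63 ± 0.06, adjusted p = 2.4e-08) and H2-T24 (-0.57 ± 0.10, adjusted p = 1.8e-04). In WT these non-classical chains thus moved by more than H2-K1 or H2-D1. In cKO irradiation raised 15 and lowered 5 (background 21.8% higher and 23.8% lower). The changes were led by H2-Q7 (0.60 ± 0.05, edgeR adjusted p = 1.9e-08), Psme2 (0.58 ± 0.03, adjusted p = 4.2e-11) and H2-T22 (0.53, adjusted p = 1.6e-09). The RFX subunits Rfx5, Rfxap and Rfxank, the DNA-binding partners of NLRC5, did not pass in the 5 Input contrasts; the lowest edgeR adjusted p was 0.0525, for the Rfx5 interaction (-0.22). The interaction was called higher for 11 of the 27 and lower for 5 (background 15.0% higher and 15.2% lower). Psmb5 (0.57) and Psmb6 (0.61) were among the higher.

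Over the 12 Inputs the members fell into a main group and 3 that departed from it. The correlation of each gene's centred log2 CPM with the mean of the other 9 was 0.96 for H2-K1, 0.95 for H2-D1, 0.94 for Tap1, 0.87 for Psmb8, 0.85 for Psmb10, 0.84 for Psmb9 and 0.66 for B2m. It was lower for Nlrc5 (0.41), Tap2 (-0.11) and Tapbp (-0.57). These are descriptions over 12 libraries in 4 groups that share depth and composition. Among 8087 other genes at 10 CPM or more, Usp18, an interferon-induced protease, was most like the mean of the members (Pearson r 0.98), followed by Ehd1 (0.98), Tpgs1 and Ccdc86 (0.97 each), Marcksl1, Nsmce3, B3gnt2, Agtrap, Coro1b and Mrpl43 (0.97 each).

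The promoters of the 8 of 10 members that had an entry in RefSeq's table (GRCm38.p6, 300 bases around the start) were searched on both strands for 2 interferon-type motifs. The core of an interferon-stimulated response element, a pair of GAAA repeats with 2 bases between them, was found in B2m alone, and 3.44% of all 32851 promoter windows hold it. TTCNNNGAA, the gamma-activated site, was found in Psmb8 alone, against 8.30% of windows. Both are matches of letters and no factor was measured. Only these exact letters were searched, so a promoter without a match is not shown to lack an element of either kind. The B2m match starts 139 bases before the start of transcription, and the stretch is shown with the match in capitals because B2m is the most abundant member.
B2m, promoter, chr2:122147528-122147577, plus: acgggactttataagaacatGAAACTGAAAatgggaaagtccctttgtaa

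At gene level the antibody recovered most class I transcripts less than the average transcript. In WT Ctrl the IP over Input value of the fit was called lower for 7 members and higher for 2 (Tap2 and Psmb8), where 75.5% of 17373 genes were called (38.1% higher and 37.5% lower). The highest value was that of Tap2 (0.43 ± 0.04, edgeR adjusted p = 1.38e-11), and the lowest that of Tapbp (-1.20 ± 0.03, adjusted p = 1.96e-27), whose own exons carried no peak. H2-D1 (-0.91 ± 0.03), B2m (-0.71 ± 0.04) and H2-K1 (-0.57 ± 0.03) were also well below 0, Psmb8 was at 0.25 ± 0.04, and Psmb9 was not called (0.12 ± 0.06, edgeR adjusted p = 0.0553). In cKO Ctrl Tap2 alone was higher (0.19 ± 0.04, edgeR adjusted p = 5.7e-05) and 9 were lower (background 73.7%, with 37.8% higher and 36.0% lower). The Psmb8 call in cKO Ctrl (-0.10 ± 0.04, edgeR adjusted p = 0.0189) was lost without cKO Ctrl IP replicate 3 (adjusted p up to 0.054).

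**Figure D5:**
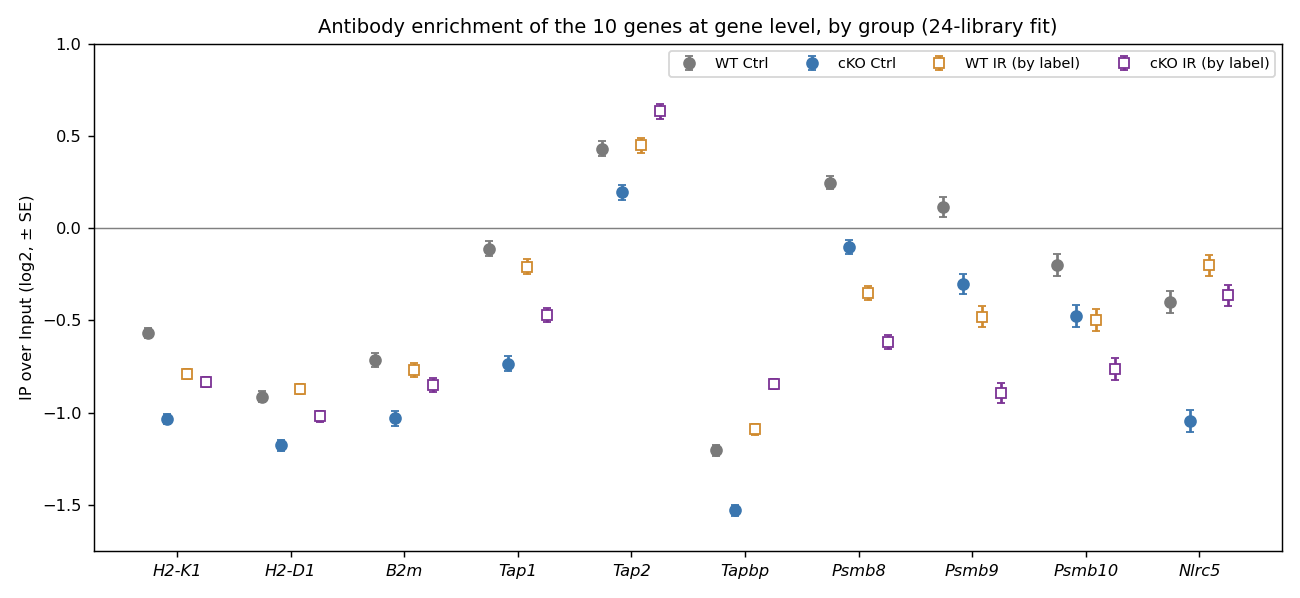
IP over Input (vertical axis, log2 ± SE from the 24-library fit) of each gene in the 4 groups, with circles for Ctrl and open squares for IR groups by label. Tap2 is above 0 in all 4 groups, and each gene is lower in cKO Ctrl than in WT Ctrl, by 0.24 for Tap2 to 0.65 for Nlrc5.

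All 10 members were less enriched in cKO Ctrl than in WT Ctrl. The difference between the 2 genotypes in IP over Input was called lower for 10 of 10, against 22.6% of all genes called (12.5% lower and 10.1% higher), with a median of -0.34 over the members and -0.00 over all genes tested. Nlrc5 changed by -0.65 ± 0.08 (edgeR adjusted p = 2.27e-07), Tap1 by -0.62 ± 0.06 (adjusted p = 2.08e-10), H2-K1 by -0.47 ± 0.04 (adjusted p = 7.8e-12) and Psmb9 by -0.42 ± 0.08 (adjusted p = 9.12e-05). The smallest changes were those of Tap2 (-0.24 ± 0.06, edgeR adjusted p = 0.00187), H2-D1 (-0.26 ± 0.04, adjusted p = 6.41e-06) and Psmb10 (-0.28 ± 0.08, adjusted p = 0.0130). The Psmb10 call was lost without WT Ctrl IP or cKO Ctrl IP replicate 1 (adjusted p up to 0.058). The 10 calls were the same number without the 6 IR IP libraries.

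Both sides of the ratio moved. Tap1 was at 63.8, 65.5 and 64.4 CPM in the WT Ctrl IP libraries and at 50.9, 51.9 and 53.7 in cKO Ctrl IP, a log2 difference of -0.31 ± 0.04 (edgeR adjusted p = 3.38e-07), while its Input was higher in cKO by the same amount. H2-K1 was at 689.8, 678 and 684 CPM in WT Ctrl IP and at 572, 589 and 571 in cKO Ctrl IP (-0.24 ± 0.03, edgeR adjusted p = 5.59e-09). Nlrc5 was at 22.9, 22.4 and 22.3 CPM in WT Ctrl IP and at 18.7, 20.1 and 18.7 in cKO Ctrl IP (-0.23 ± 0.06, edgeR adjusted p = 0.00304). In all, 8 members were lower and 0 higher in the cKO Ctrl IP libraries (background 26.7%, with 13.7% lower and 13.1% higher), and Tap2 (-0.10) and Psmb10 (-0.14) did not pass. B2m, which had no called peak, was among the 8 (-0.17 ± 0.04, edgeR adjusted p = 0.00118). Whether matching Input and IP libraries share an RNA pool is not given in the sources used here. The summed neutrophil markers, per unscaled library total, were 1827 CPM in WT Ctrl and 884 in cKO Ctrl in the Inputs, and 648 and 687 in the IP libraries. The part of this in the change was not tested.

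Of the 27 pathway genes, 14 also had a lower IP over Input in cKO Ctrl than in WT Ctrl (background 12.5% lower and 10.1% higher). Canx alone had a higher one (0.13, edgeR adjusted p = 0.021). The largest changes were those of H2-Q7 (-1.08 ± 0.10, edgeR adjusted p = 1.1e-10), H2-Q6 (-0.76 ± 0.06, adjusted p = 1.6e-11) and the kinase Jak2 (-0.74 ± 0.05, adjusted p = 2.4e-14). The constitutive subunits Psmb5, Psmb6 and Psmb7 gave -0.01, 0.04 and -0.01 and were not called, unlike the 3 immunoproteasome subunits.

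For the irradiated IP libraries the values hold by label only. IP over Input was higher for Tap2 and lower for the other 9 in the group labelled WT IR (background 73.5%, with 37.0% higher and 36.5% lower) and in the group labelled cKO IR (73.8%, with 36.9% higher and 36.9% lower). When each IR IP group was set against the IR Inputs of the other genotype label, the same split of 1 higher and 9 lower was found, but values moved. Psmb8 went from -0.35 to -0.87 in the group labelled WT IR and from -0.62 to -0.10 in that labelled cKO IR. Psmb9 went from -0.48 to -1.12 and from -0.90 to -0.25, and Psmb10 from -0.50 to -0.98 and from -0.77 to -0.29. Tap2 was at 0.45 and 0.48 in the first group and at 0.64 and 0.60 in the second, and Nlrc5 at -0.20 and -0.19 and at -0.36 and -0.38. The Nlrc5 call in the group labelled WT IR (-0.20) was lost without WT IR Input replicate 1 (edgeR adjusted p up to 0.0585).

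In the IP level itself, 8 members were higher and 1 lower (Nlrc5) in the libraries labelled cKO IR than in those labelled WT IR (background 35.8%, with 17% higher and 18.8% lower). Psmb8 was at 161, 169 and 165 CPM in those labelled WT IR and at 196, 199 and 194 in those labelled cKO IR (0.25 ± 0.04, edgeR adjusted p = 2.15e-06). The H2-D1 call was lost without replicate 2 or 3 of the IP group labelled WT IR or 1 or 3 of that labelled cKO IR, that of B2m without replicates 1 or 2 of the first or 2 of the second, that of Tapbp without replicate 1 of either, and that of Nlrc5 without replicate 3 of the first or 1 of the second, and the count went down to 6. The IR IP libraries were also set against the unirradiated IP libraries of the same genotype label. In WT, 3 members were higher and 4 lower (background 52.3%, with 24.6% higher and 27.7% lower), with Psmb8 at -0.61 ± 0.04 and Nlrc5 at 0.37 ± 0.06. In cKO, 7 were higher and 1 lower (background 47.7%, with 23.6% higher and 24% lower), with Tapbp at 0.51 ± 0.03 and Psmb8 at -0.13 ± 0.04. The interaction of IP levels was called higher for 9 of 10 and for Nlrc5 not called (background 40.2%, with 19.6% higher and 20.7% lower).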

How the data were processed

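MC38 tumour CD11b+ cells were profiled by MeRIP-seq. Per the methods and labels, the authors used Trimmomatic 0.39, HISAT (mm10, GENCODE vM19, stranded) and HTSeq to obtain read counts; these deposited counts are raw, one column for each library. MACS2 was run by the authors on each library, separately for both strands. For every peak the deposited lists hold a fold (a ratio over a control), −log10 values of p and q, and a score; which Input served as control is not given in the sources used here.

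Members and lists were chosen with earlier results of these data known. Groups came from the labels. Of 54446 identifiers 54409 matched GENCODE vM21 of GRCm38, which gave symbols, exons and positions, and 37 did not. Lines that name no gene, such as reads outside genes (3.95% to 6.55% of Input reads), were left out. Tests were quasi-likelihood F tests (edgeR 4.0.16, R 4.3.3) with TMM scaling, 10 or more counts required in 3 or more libraries, and Benjamini-Hochberg adjustment over all genes tested (threshold 0.05), in one fit of the 12 Inputs (16090 genes) and one of all 24 libraries (17373 genes). SEs were taken as the log2 fold change over the root of F. The study used DESeq2, and DESeq2 1.42.0 was an alternative. The common biological coefficient of variation was 5.57% and 4.98%. The code was tested on simulated data. Input CPM use TMM factors of the 12 Inputs and IP CPM those of all 24 libraries; marker sums use unscaled library totals. IP over Input comes from the fit alone. No pair of replicates agreed within counting noise (chi-square per degree of freedom 3.53 to 37.6 over 24 pairs). Each library was counted as its own replicate, though this check cannot tell technical from biological replicates. A consensus peak was found in all 3 replicates of a group, with an overlap of at least 1 bp. All 10 members are named. Of the 27 pathway genes, those with a call unlike the members of their role and the 3 largest changes of a contrast could be named; 1 of them is not reported here. The genes most like the members were the 10 with the highest Pearson r. No batch was labelled.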

Additional observations from a re-analysis of the deposited data

Results flagged for a closer look

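The irradiation effect on the Input level differed between genotypes by the test of the interaction for Psmb8 (0.41), Psmb9 (0.46), Psmb10 (0.35), Tapbp (-0.20) and Nlrc5 (-0.42). In the 2 genotypes the effect was -0.01 and 0.40 for Psmb8, 0.08 and 0.54 for Psmb9, -0.15 and 0.20 for Psmb10, 0.05 and -0.16 for Tapbp, and 0.17 and -0.24 for Nlrc5 (WT first, log2). Nlrc5, the transactivator, thus went the opposite way from the immunoproteasome genes in this comparison.

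The same interaction in the IP libraries, whose IR groups are known by label only, was called for H2-K1 (0.42), H2-D1 (0.22), B2m (0.29), Tap1 (0.30), Tap2 (0.26), Tapbp (0.36), Psmb8 (0.48), Psmb9 (0.45) and Psmb10 (0.35). Tapbp had opposite signs in the Input and the IP libraries, and the difference between the 2 was not tested.

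The enrichment by the antibody differed between cKO Ctrl and WT Ctrl for all 10 members: H2-K1 (-0.47), H2-D1 (-0.26), B2m (-0.32), Tap1 (-0.62), Tap2 (-0.24), Tapbp (-0.33), Psmb8 (-0.35), Psmb9 (-0.42), Psmb10 (-0.28) and Nlrc5 (-0.65). B2m had no called peak and Tapbp none in its own exons.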

How the results depend on the processing

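The 5 Input, 4 IP over Input, 5 IP level and 1 change-of-enrichment counts of members kept within 1.5 times of their value under RLE size factors, no count filter and DESeq2. Fitted on its own 6 libraries, WT IR vs WT Ctrl had 1 call in place of 3, and over all genes cKO Ctrl vs WT Ctrl had 3870 in place of 2520 calls. With single libraries left out, the count was 1 to 5 for WT IR vs WT Ctrl and 3 to 9 for cKO Ctrl vs WT Ctrl in the Inputs. Consensus peaks with a fold of at least 4 were left on 0 members in WT Ctrl and on 1 member (Tapbp, in the Zbtb22 exon) in each of the other groups, and on 1 over all groups; with the exon rule the group labelled cKO IR had 1. Signs reversed for values near 0 that were not called: Nlrc5 in cKO IR vs WT IR (0.000257 without a count filter; -0.0648 to 0.0680 with libraries left out), the H2-K1 Input interaction (-0.00691 with at least 50 counts in 3 libraries; -0.0139 to 0.0340), Psmb8 Input in WT IR vs WT Ctrl (-0.0678 to 0.0473), Tap1 IP level in WT IR vs WT Ctrl (0.00810 with RLE size factors, 0.00806 with DESeq2; -0.0298 to 0.00517) and Tap1 IP level in cKO IR vs WT IR (-0.0308 to 0.0182). The causes were not tested.

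Same-numbered Inputs of different groups did not deviate together (correlation of deviations -0.29 to 0.20, median -0.04). For same-numbered Input and IP libraries it was -0.36 to 0.15 (median 0.005) over 48 pairs of all conditions. Pairs of the same condition were not examined alone, so a pairing of an Input with its own IP library is not settled. A fit with the replicate number as a block gave 5 in place of 6 calls for cKO Ctrl vs WT Ctrl in the Inputs (Psmb9 lost, edgeR adjusted p = 0.0585) and changed no other of the 150 member calls. Members are well counted, and the limits are 3 libraries per group, pooled animals and the labels of the IR IP libraries.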
